A study of Homo sapiens with 24 samples.

Results

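The genes described here were 59 protein-coding genes spread along the long arm of human chromosome 13, listed by name from ZMYM2 near the centromere to CDC16 near the end of the arm. They were 59 of the 346 chromosome 13 genes measured and of 20046 genes in all. The list was drawn up with a lowered block of chromosome 13 in HT1080 knockout clone 21 already known, so the members were chosen by the values of that clone, which are given as a description with no test.

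The study knocked out TERF2IP, which encodes Rap1, a protein of the telomere-binding shelterin complex, with TALENs, which are designed nucleases. Total RNA of separate clones was measured on Illumina arrays. HT1080, a human fibrosarcoma line, gave knockout clones 21 and 8 and wild-type clones 2 and 9. HCT116, a human colorectal carcinoma line, gave clones 10, 21 and 28 labelled knockout and clones 15, 20 and 23 labelled wild type. Each of these clones had 2 arrays. ARPE-19 retinal pigment epithelial clones, with 1 array each, were not used here. A number shared by clones of different lines, such as 21, names unrelated clones as far as the labels say. Each group is a handful of clones, so any change that arose in 1 clone is carried by a large part of its group.

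The deposited values had been centred for each probe on its median over the arrays of a line, so 0 is the line's own median and no value is an expression level. In HT1080, TERF2IP itself stood between -1.81 and -1.11 in the 4 knockout arrays, against 1.10 to 1.27 in the 4 wild-type arrays. In HCT116 the labels were borne out by it only in part. It ranged from -0.76 to 0.06 in the arrays labelled knockout, against -0.28 to 1.5 in those labelled wild type. The overlap came from clone 20, labelled wild type, at -0.28 and -0.23. Clone 23, at 1.5 and 1.23, lay well above every array labelled knockout, and clone 15, at 0.14 and 0.06, barely so. The 2 arrays of a clone differed by an SD of 0.169 to 0.21 over all genes.

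Chromosome 13 is gene-poor for its size. RB1, which lies in its middle, encodes the retinoblastoma protein, which binds E2F transcription factors and holds back entry into S phase; loss of RB1 is the founding event of retinoblastoma. SUCLA2 encodes the ATP-forming subunit of succinyl-CoA ligase in the citric acid cycle, and MED4 a subunit of the Mediator complex that links transcription factors to RNA polymerase II. In cells with an abnormal number of copies of a chromosome segment, transcripts of the segment generally move together with the copy number. Only RNA was measured here, so whether the lowered genes had lost DNA copies was not tested.

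Neighbouring promoters show how closely some members lie together. The 250 bases before the start of PIBF1, which encodes a centrosomal protein, and those before DIS3, the catalytic subunit of the nuclear RNA exosome, share 232 bases on opposite strands, and both genes were lower in clone 21. Their shared region is shown with those of SUCLA2 and of SPRY2, the member that was lowest, 5′ to 3′ on each gene's own strand. Capitals mark matches to the GC box GGGCGG, the ETS motif CCGGAAG, the CCAAT box, the E2F motif TTTCGCGC or the TATA box TATAAA on either strand, overlapping matches included. The sequences and coordinates are from RefSeq, build GRCh38.p14: PIBF1 on the plus strand at chr13:72781883-72782132, SUCLA2 on the minus strand at chr13:48001274-48001523 and SPRY2 on the minus strand at chr13:80341127-80341376.
PIBF1: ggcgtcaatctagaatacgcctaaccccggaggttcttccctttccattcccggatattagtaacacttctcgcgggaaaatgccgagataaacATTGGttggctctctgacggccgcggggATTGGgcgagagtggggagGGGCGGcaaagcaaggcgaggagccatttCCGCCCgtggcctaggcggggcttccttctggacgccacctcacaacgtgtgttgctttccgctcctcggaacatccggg
SUCLA2: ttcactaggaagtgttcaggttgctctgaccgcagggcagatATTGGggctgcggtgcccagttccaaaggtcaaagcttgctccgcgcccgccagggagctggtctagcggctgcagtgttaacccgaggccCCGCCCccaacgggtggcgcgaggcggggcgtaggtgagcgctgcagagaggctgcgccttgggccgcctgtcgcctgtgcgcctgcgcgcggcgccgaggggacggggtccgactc
SPRY2: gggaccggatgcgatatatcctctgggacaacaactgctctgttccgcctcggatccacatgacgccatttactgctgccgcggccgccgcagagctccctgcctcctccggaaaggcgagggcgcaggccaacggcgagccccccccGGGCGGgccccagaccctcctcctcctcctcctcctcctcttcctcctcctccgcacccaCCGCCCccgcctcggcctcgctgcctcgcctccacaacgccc
A promoter window was matched for 54 of the 59 members. A GC box was found in 62.9% of the 35 windows of members in the lowered run described next and in 63.2% of the 19 windows of the other members. Among all 27305 genes with such a window it was found in 42.3%. These genes were not matched to the members by gene type or base content. The median share of G and C bases was 58% in their windows, 63.2% in those of members in the run and 69.2% in those of the other members. The E2F motif was found in 0 of the 54 and in 0.469% of all windows. Of the 54 windows, 12 did not adjoin the annotated gene start, RB1's among them, and these may belong to other transcripts of the gene. A motif match is a description of these letters only.

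In HT1080 clone 21, a long block in the middle of chromosome 13 was low on both of its arrays. A gene was called lower in a clone where both arrays of that clone lay below every array of the line's other clones, of which there were 6 in HT1080 and 10 in HCT116. By this rule 41 of the 59 members were lower in clone 21, against 5.99% of all genes, and 1 member, TM9SF2, was higher, against 7.01% of all genes. As the members were listed with this contrast known, nothing is read from those shares. The median difference of the members, clone 21 minus the mean of clones 8, 2 and 9, was -0.58. The members not called lower were mostly at the ends of the arm.

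The block was placed by taking the measured chromosome 13 genes in map order and finding the run of consecutive genes with the largest summed lowering beyond a margin of 0.2. It ran from SPART to SPRY2 and held 157 genes, of which 76 (48.4%) were lower and 38 were members. Of those 38 members, 35 were lower and their median difference was -0.69, a ratio of 0.619 if the values are log2. The quartiles of the 38 were -0.85 and -0.54. Of the 119 other genes in the run, 41 were lower, with a median of -0.12. Counting only the 70 genes of the run whose first and second arrays correlated at 0.5 or more over the HCT116 clones, a measure of how well a probe repeats, 52 were lower, with a median of -0.54.

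The rule fixes that the run's end genes are lowered by more than the margin and that the next genes outside are not. The values at the ends are therefore a description only. SPART, the first gene inside, stood at -0.77, and CCDC169, just outside, at -0.09. SOHLH2, next beyond CCDC169, was called lower at -0.27. SPRY2, the last gene inside, stood at -1.60, and SLITRK1, just outside, at -0.08. Among members, SMAD9 (-0.34) was the first inside and PDS5B (-0.03) its nearest outside, and ABCC4 (0.19) was the first beyond SPRY2. With a margin of 0.3 the run shortened to SPART to TPT1, 48 genes with 15 members, which leaves RB1, MED4 and SUCLA2 outside it. With a margin of 0.1 it widened to GJB2 to LINC00560, 244 genes with 46 members, and over the listed members alone it went from SAP18 to STK24. Both ends therefore depend on how strictly the lowering is read, and the wider readings join the main run with the shorter runs described next. Several alternatives moved its start to NBEA, which stood at -0.66 a few genes before SPART.

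**Figure D1:**
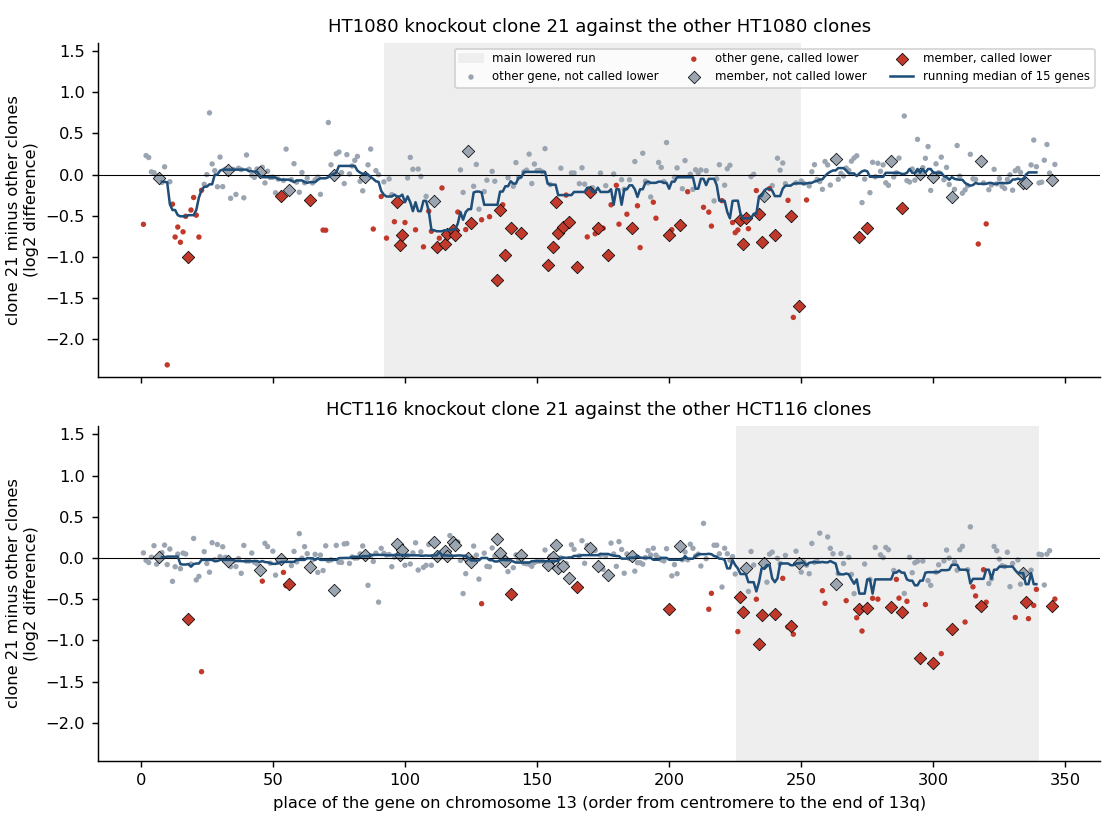
Measured genes of chromosome 13 in map order (x axis) against the difference of clone 21 from the other clones of its line (y axis, log2 difference), for HT1080 above and HCT116 below. Diamonds are the 59 members, red marks genes called lower, the line is the running median of 15 genes and the grey band the main lowered run, SPART to SPRY2 in HT1080 and BORA to TFDP1 in HCT116.

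Shorter lowered runs lay apart from the main one in HT1080 clone 21. From GJB2 to MICU2, near the centromere, 12 of 13 genes were lower, with a median of -0.64; this run held the member SAP18. From IPO5 to SLC15A1, beyond SPRY2, 2 of 5 genes were lower, and both were members, IPO5 at -0.75 and STK24 at -0.65. A run of 3 genes from MTUS2 to UBL3, with no members, had 2 lower and a median of -0.67. Apart from that run, which lies within the first of them, the segments before and after the shorter runs had medians near 0. The 70 genes from FGF9 to CCDC169 had a median of -0.02 with 7 lower, the 22 from SLITRK1 to RAP2A a median of 0.02 with 1 lower, and the 70 from DOCK9 to CHAMP1 a median of -0.03 with 3 lower.

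The 3 marker genes, RB1, SUCLA2 and MED4, were low on both arrays of clone 21. RB1 stood at -0.48 and -0.60 in clone 21 and at 0.18 and -0.23 in clone 8, against -0.00 and -0.01 in clone 2 and 0.42 and 0.19 in clone 9, the wild-type clones. Both clone 21 arrays lay below the other 6, with a difference of -0.63. SUCLA2 stood at -0.80 and -0.86 in clone 21 and at 0.26 and 0.02 in clone 8, against -0.02 and -0.20 in clone 2 and 0.20 and 0.08 in clone 9. Its difference was -0.88, and a further probe of the gene gave -0.82. MED4 stood at -0.31 and -0.31 in clone 21 and at 0.12 and 0.11 in clone 8, against -0.23 and -0.12 in clone 2 and 0.13 and 0.11 in clone 9. Its difference of -0.33 was among the smallest of the members called lower in the run, of which RCBTB1, a protein with RCC1 and BTB domains, had the smallest at -0.21.

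The lowest members stood far outside the range of the other clones. SPRY2, an inhibitor of receptor tyrosine kinase signalling to ERK, stood at -1.57 and -1.53 in clone 21 and at 0.18 and 0.10 in clone 8, against 0.07 and 0.20 in clone 2 and -0.06 and -0.17 in clone 9. FNDC3A, a membrane protein with fibronectin type III domains, stood at -1.14 and -0.995 in clone 21 and at -0.02 and 0.04 in clone 8, against 0.27 and 0.13 in clone 2 and -0.11 and 0.05 in clone 9. In both genes the other 6 arrays stayed within a narrow band around 0. ESD, esterase D, stood at -1.13 and -1.03 in clone 21 and at 0.05 and -0.08 in clone 8, against 0.00 and 0.03 in clone 2 and 0.09 and -0.00 in clone 9. TSC22D1, a transcription regulator first known as induced by TGF-beta, stood at -0.84 and -0.88 in clone 21 and at 0.34 and -0.19 in clone 8, against 0.10 and -0.11 in clone 2 and 1.10 and 1.26 in clone 9. Its difference of -1.28 therefore includes a high clone 9 as well as a low clone 21. SAP18, a subunit of the Sin3 histone deacetylase complex, stood at -0.94 and -1.02 in clone 21 and at 0.00 and 0.02 in clone 8, against 0.05 and 0.05 in clone 2 and 0.06 and -0.06 in clone 9. It lay in the short run near the centromere. The next lowest were TRIM13, a ubiquitin ligase (-0.98), GTF2F2, a subunit of the general factor TFIIF (-0.97), and MRPS31, a mitochondrial ribosomal protein (-0.88).

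**Figure D2:**
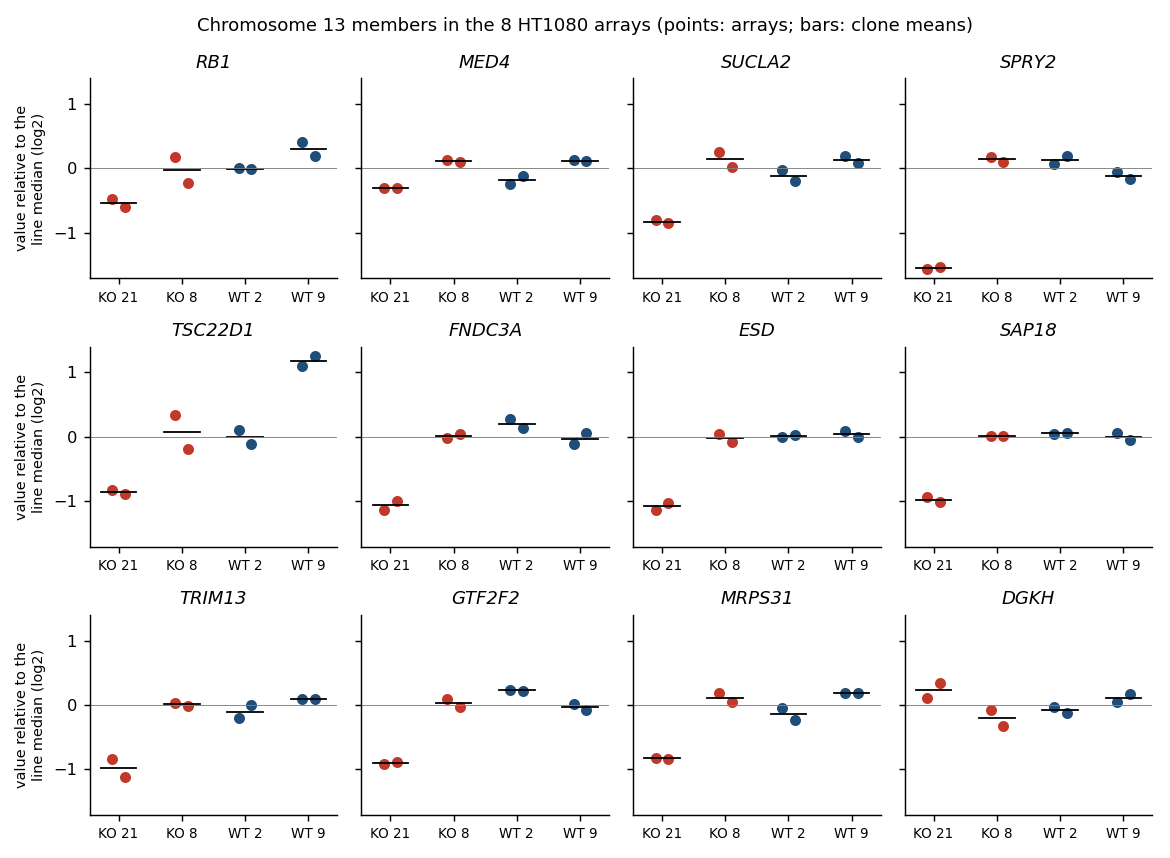
Values of 12 members in the 8 HT1080 arrays, relative to the line's median (log2, y axis), by clone (x axis; red, knockout clones 21 and 8; blue, wild-type clones 2 and 9). Points are arrays and bars clone means; in 11 genes clone 21 lies below all other arrays, and DGKH at 0.28 is the exception.

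Of the 38 members in the run, 3 were not called lower. DGKH, a diacylglycerol kinase, was above 0 with a difference of 0.28; a further probe of it gave -0.01. FOXO1, a transcription factor held out of the nucleus by AKT, was at -0.32 and LMO7, a cell junction protein, at -0.27, and their arrays overlapped those of other clones. Outside the run, the highest members were ABCC4, an efflux transporter (0.19), ING1, a chromatin reader (0.17), TM9SF2, an endosomal membrane protein (0.17), and PARP4, an ADP-ribosyltransferase of vault particles (0.06).

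Lowered members within the run were found in every role its members have. The members were chosen by the values of this clone, and the run was drawn to hold the largest summed lowering. Nearly all of its members were lower, so any split of them by role gives groups that are mostly lower. The counts by role within the run are therefore a description only, and nothing about function is read from them. Of the 8 transcription and chromatin genes there, 7 were lower, with a median difference of -0.58; besides RB1, MED4, TSC22D1 and GTF2F2 they included ELF1, an ETS factor, at -0.85. All 6 RNA processing genes were lower, with a median of -0.60; EXOSC8, a structural exosome subunit, was at -0.73 and DIS3 at -0.55. All 4 mitochondrial and metabolic genes were lower, with a median of -0.88, from MTRF1, a mitochondrial release factor (-0.73), to ESD (-1.10). All 6 genes of ubiquitin, chaperone and proteolysis functions were lower, with a median of -0.70, among them UCHL3, a deubiquitinase, at -0.82. All 5 genes of transport, membranes and glycosylation were lower, with a median of -0.71; ALG5, which makes a sugar donor for N-glycans, was at -0.86 and VPS36, an ESCRT-II subunit, at -0.74. Of the 9 signalling, scaffold and cytoskeleton genes, 7 were lower, with a median of -0.59.

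Outside the run 6 of 21 members were lower, and the median of the 21 was -0.06. They were SAP18, IPO5 and STK24 of the shorter runs, with PCCA, a subunit of propionyl-CoA carboxylase (-0.41), PAN3 of a poly(A) nuclease (-0.31) and GTF3A, the 5S rRNA gene factor TFIIIA (-0.26). For PCCA, PAN3 and GTF3A, clone 9 stood above the other clones, which enlarges their differences. Of the 4 genome maintenance members, all outside the run, 0 were lower. CUL4A, a scaffold of ubiquitin ligases, differed between the 2 arrays of clone 21, at -0.35 and 0.34.

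Both arrays of clone 21 gave the same picture: taken singly, the median difference of the members in the run was -0.68 on each. The chosen probe of a gene was the most variable over the HT1080 and HCT116 arrays, which favours large differences. Over all 61 probes of the 38 members in the run, 47 were lower, against 5.84% of all 30113 named probes, with a median of -0.62. Of the 23 probes that were not chosen, 12 were lower and 20 were below 0, with a median of -0.31. TRIM13 is such a case, with probes at -0.98 and -0.82 but also at -0.01 and 0.10. FNDC3A had probes at -1.13 and -0.91 but also at 0.03, and RCBTB2 had its chosen probe at -0.58 and a further one at -0.09.

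The members were not lowered in the same way in any other HT1080 clone. In knockout clone 8, 0 of 59 members were lower, against 5.96% of all genes, and their median difference from the other clones was 0.19. Those other clones include clone 21, whose low values raise this difference, and against the wild-type clones alone it was 0.016. A gene can be lowest in 1 clone only, so the 41 members lower in clone 21 could not be called lower in another. Of the wild types, clone 2 had 3 lower members, POLR1D, HMGB1 and ING1, against 11.7% of all genes. Clone 9 had 4, ABCC4, TM9SF2, TPP2 and ERCC5, against 10.2%. All 7 lay outside the run, but inside it 35 of the 38 members were lower in clone 21 and so could not be called. Set against the 4 wild-type arrays alone, 42 of 59 members were lower in both arrays of clone 21, against 10.3% of all genes, and 1 of 59 in both arrays of clone 8, against 10.4%. RCBTB2 was the 1 member lower in both knockout clones, against 3.19% of all genes.

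No other chromosome of clone 21 stood as low. On chromosome 13, 29.5% of genes were lower and the median difference was -0.09. On the other 22 chromosomes measured, between 3.26% and 7.14% of genes were lower, the highest share being on chromosome 6, and the medians lay between -0.009 and 0.017. Of 19601 windows of 15 neighbouring genes across the genome, the lowest in clone 21 ran from FREM2 to MTRF1 on chromosome 13, with a median of -0.69. All 20 windows at or below -0.5 in this clone were on chromosome 13. In the other HT1080 clones the lowest window had a median of -0.24 in clone 8 (chromosome 1), -0.53 in clone 2 (chromosome X, with 8 windows at or below -0.5, 0 of them on chromosome 13) and -0.28 in clone 9 (chromosome 10).

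**Figure D3:**
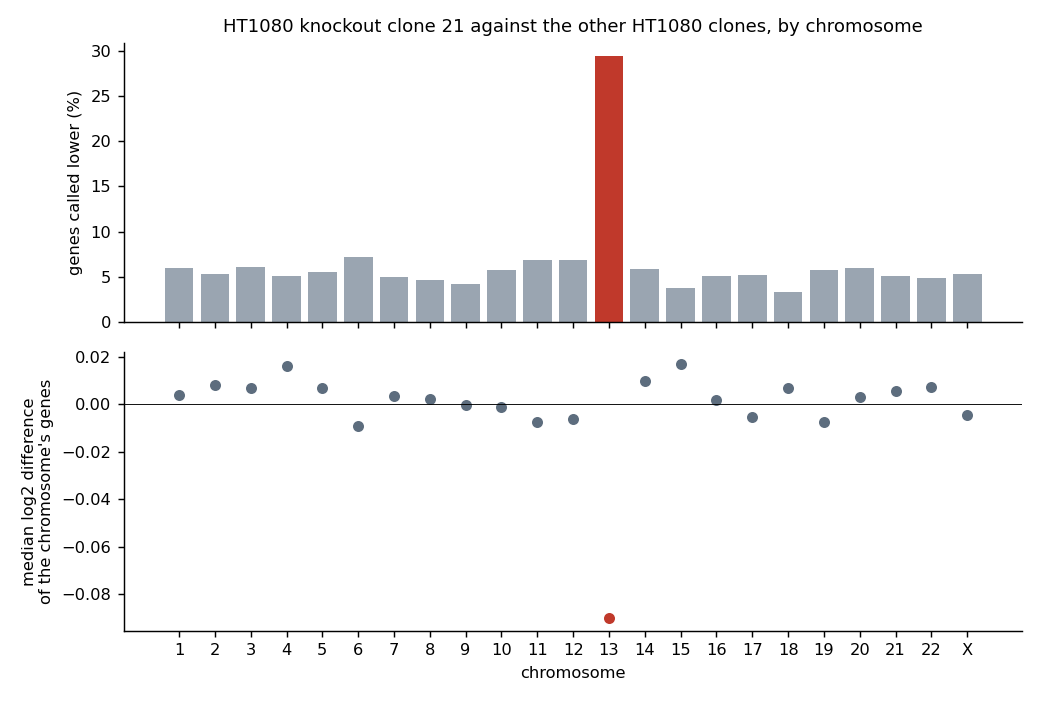
Share of genes called lower in HT1080 clone 21 (upper panel, percent) and median log2 difference of clone 21 from the other HT1080 clones (lower panel) for each chromosome. Chromosome 13, in red, stands at 29.5% and -0.09, and every other chromosome lies at or below 7.14%.

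The genotype comparison of HT1080 took in clone 21 as 1 of 2 knockout clones. By limma with Benjamini-Hochberg adjustment, 0 of 59 members passed an adjusted p of 0.05, where 0.00998% of all genes did; 2 members, RCBTB2 and LMO7, and 4.81% of all genes had an unadjusted p under 0.05. The smallest adjusted p of a member was 0.914. The members' median difference, knockout minus wild type, was -0.24, with 50 of 59 below 0, where 50.8% of all genes were. This median was 0.016 without clone 21 and -0.55 without clone 8. SUCLA2 averaged -0.34 ± 0.68 in knockout clones and 0.01 ± 0.18 in wild-type clones (SD, n = 2 each), a difference of -0.36 ± 0.33 (SE; limma, adjusted p = 0.927). RB1 averaged -0.28 ± 0.37 in knockout clones and 0.15 ± 0.22 in wild-type clones (SD, n = 2 each), a difference of -0.43 ± 0.21 (SE; limma, adjusted p = 0.914). The large SDs of the knockout group are the distance of clone 21 from clone 8.

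In HCT116, 0 of 59 members passed limma's adjusted threshold between clones labelled knockout and wild type; 0% of all genes did. At an unadjusted p under 0.05 there were 8 members, 7 of them lower, and 7.11% of all genes. The members' median difference, labelled knockout minus labelled wild type, was -0.10. It was below 0 for 43 of 59 members, where 48.6% of all genes were below 0. All 3 clones labelled knockout lay below all 3 labelled wild type for 6 of 59 members, against 6.08% of all genes, and above them for 1, TSC22D1, against 6.47%. The smallest adjusted p of a member was 0.483, that of RCBTB2, a relative of RCBTB1, which averaged -0.20 ± 0.12 in clones labelled knockout and 0.15 ± 0.04 in clones labelled wild type (SD, n = 3 each). SUCLA2 differed by 0.07 ± 0.11 (SE; limma, adjusted p = 0.919) and RB1 by -0.17 ± 0.08 (SE; limma, adjusted p = 0.711). The difference between the lines in the change with genotype was tested as an interaction: 0 of 59 members passed, where 0.0499% of all genes did, and 3 members (TSC22D1, LMO7 and ABCC4) had an unadjusted p under 0.05, where 8.06% of all genes did. TSC22D1 had the largest such difference among members, -1.57 ± 0.51 (SE; limma, adjusted p = 0.547).

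HCT116 was the line set beside HT1080, and its clone 21, labelled knockout, had a lowered run of its own further along the arm. That run was looked for after the HT1080 run was known and is also a description with no test. It went from BORA to TFDP1 and held 114 genes, of which 42 were lower and 20 were members. Of those 20 members, 15 were lower, with a median difference of -0.61. In all, 21 of 59 members were lower in HCT116 clone 21, against 4.4% of all genes. Of the clones labelled knockout, clone 10 had 5 lower members (PDS5B, WBP4, AKAP11, SUGT1 and SPRY2), against 5.55% of all genes, and clone 28 had 0, against 2.99%. Of those labelled wild type, clone 15 had 2 (ZMYM2 and RCBTB1), against 4.4%, clone 20 had 5 (GTF3A, EXOSC8, MRPS31, SUCLA2 and KLF5), against 3.82%, and clone 23 had 0, against 2.09%. As in HT1080, the 21 members lower in clone 21 could not be called lower in these other clones. The lowest window of 15 neighbouring genes in HCT116 clone 21, of 19601, was again on chromosome 13, from DNAJC3 to GPR18, with a median of -0.43. The run was less firm than that of HT1080: with values not centred by array, or with the mean of a gene's probes, it kept 6 members, and with a margin of 0.3 it kept 4.

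The lowest members of HCT116 clone 21 were ERCC5, TPP2, COMMD6 and LIG4. ERCC5, the XPG endonuclease of nucleotide excision repair, stood at -1.12 and -1.40 in its 2 arrays, against a lowest, median and highest value of -0.19, 0.01 and 0.14 in the other 10 HCT116 arrays. TPP2, tripeptidyl peptidase II, stood at -1.32 and -1.06, against -0.13, 0.02 and 0.20 in the others. Neither gene was lowered in HT1080 clone 21, where they stood at -0.03 and 0.01 from the other clones. COMMD6, a regulator of cullin ligases, stood at -0.84 and -1.07, against -0.09, 0.07 and 0.32 in the others. LIG4, the DNA ligase of non-homologous end joining, stood at -0.69 and -0.76, against -0.32, 0.14 and 0.53. In all 4 genes both arrays of clone 21 lay below the other 10.

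At the main setting the 2 runs overlapped in part, which divides the members into 4 zones. The zones were drawn from the same clone 21 differences, so the counts within them are a description only. Without array centring the HCT116 run began at MBNL2, with the mean of a gene's probes at UGGT2 and with a margin of 0.3 at TM9SF2. Each start lies beyond SPRY2, so in these settings the runs did not overlap. The 29 members from SMAD9 to SUGT1 lay in the HT1080 run alone: 27 were lower in HT1080 clone 21 (median -0.71) and 3 in HCT116 clone 21 (median 0.03), namely TPT1, FNDC3A and VPS36. RB1, MED4 and SUCLA2 belong here and stood at -0.10, 0.16 and 0.01 in HCT116 clone 21. The 9 members from DIS3 to SPRY2 lay in both runs: 8 were lower in HT1080 clone 21 (median -0.55) and 6 in HCT116 clone 21 (median -0.66). SPRY2, lowest of all in HT1080, stood at -0.06 in HCT116 clone 21. The 11 members from ABCC4 to LAMP1 lay in the HCT116 run alone: 3 were lower in HT1080 clone 21 (median -0.10) and 9 in HCT116 clone 21 (median -0.60). Of the 10 in neither run, 3 were lower in each clone, and SAP18 was lower in both, at -0.999 in HT1080 and -0.74 in HCT116. Altogether 13 members were lower in both clones, 31.7% of the HT1080 list and 61.9% of the HCT116 list. Over all genes 88 were, 7.33% and 9.97% of the lists. The members' shares are high because many members were lower in each clone. Of all 59 members, 35.6% were lower in HCT116 clone 21 and 69.5% in HT1080 clone 21. The 31.7% and 61.9% lie slightly below these, so no sharing beyond them is read from the 13.

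**Figure D4:**
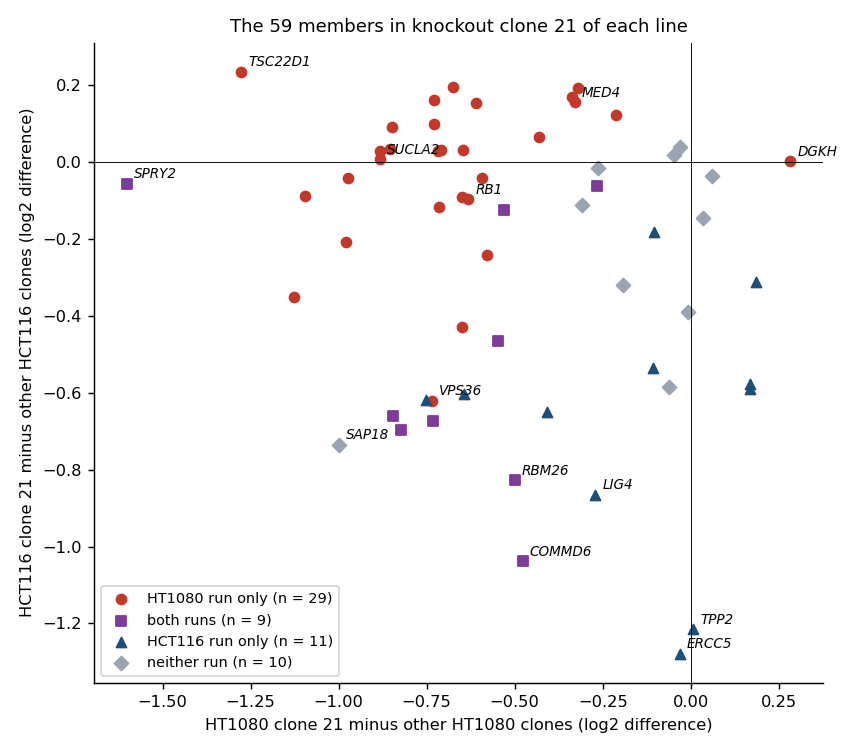
Each of the 59 members by its difference in HT1080 clone 21 (x axis) and in HCT116 clone 21 (y axis), each clone minus the other clones of its line (log2 difference), with symbols for the 4 zones. Members of the HT1080 run alone lie to the left with values near 0 in HCT116 (median 0.03), and members of the HCT116 run alone lie low with a median of -0.10 in HT1080. The zones were drawn from these same differences, so this split is in part built in.

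Genes on other chromosomes whose products work with the members were looked at as a list of complex partners. Of 122 listed, 118 were measured; 10 were lower and 8 higher in HT1080 clone 21, against 5.99% and 7.01% of all genes, and their median difference was 0.04. The lowest were ERCC1, the partner of the XPF endonuclease (-0.42), CDK19, a paralogue of CDK8 (-0.28), and COG7 of the Golgi tethering complex that COG3 belongs to (-0.28). The highest were SAP30 of the Sin3 complex (0.40), CDCA5 of the cohesin machinery (0.30) and TFDP2, a partner of E2F factors (0.30). COG7 was not called lower, and CDCA5 and TFDP2 were not called higher, as their clone 21 arrays overlapped those of other clones. The partners of SUCLA2 were both lower by small amounts: SUCLG1, the common subunit of succinyl-CoA ligase, was at -0.18 and SUCLG2, the GTP-forming subunit, at -0.24. The 8 partners of RB1 had a median of 0.11 with 0 lower, and the 10 other exosome genes a median of 0.01 with 0 lower.

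The E2F targets, the genes of DNA replication and cell division that RB1 restrains, lay on the higher side in HT1080 clone 21. Of 34 listed, 32 were measured; 8 were higher, against 7.01% of all genes, and 0 lower, against 5.99%. 1 of the 32 was below 0, where 9999 of all 20046 genes were, and their median was 0.19. The highest were CCNE1, cyclin E1 (0.53), RRM2, a ribonucleotide reductase subunit (0.53), and CDK1 (0.43). CCNE1 stood at 0.51 and 0.42 in clone 21 and at 0.22 and 0.38 in clone 8, against -0.27 and -0.25 in clone 2 and -0.28 and -0.21 in clone 9. The lowest were PCNA, the replication clamp (-0.11), MCM5 of the replicative helicase (0.00) and AURKB, a mitotic kinase (0.03). By clone, the median value of the 32 was 0.09 in clone 21 and 0.05 in clone 8, against -0.28 in clone 2 and -0.02 in clone 9. Clone 21 minus clone 8 had a median of 0.04 with 20 of 32 above 0. Minus clone 9 the median was 0.14 with 24 above 0, and minus clone 2 it was 0.39 with 32 above 0. The difference of 0.19 therefore includes a low clone 2. In HCT116 the clone medians of the 32 ran from -0.16 in clone 10, labelled knockout, to 0.16 in clone 15, labelled wild type. The part of RB1 in these values was not tested. By limma, 0 of the 32 passed the adjusted threshold between genotypes in either line, with medians of 0.22 in HT1080 and -0.11 in HCT116.

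**Figure D5:**
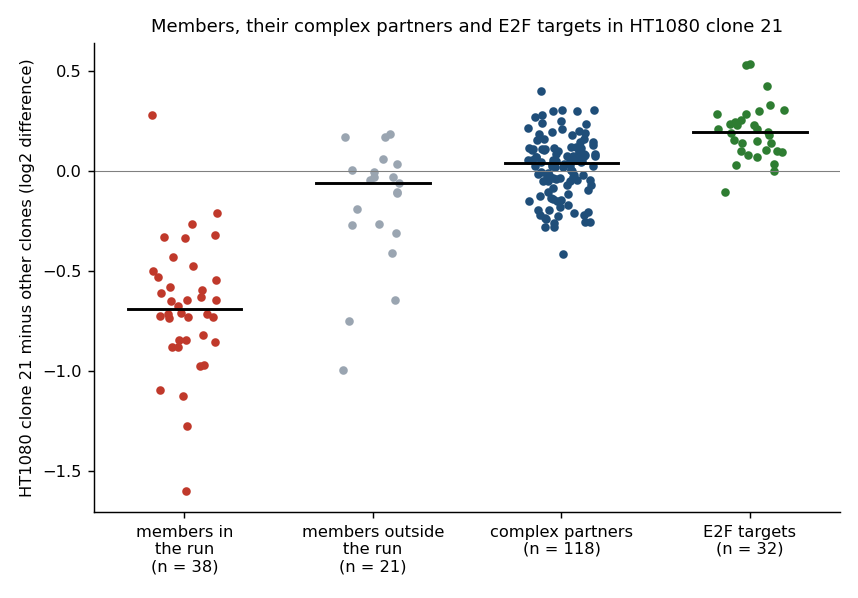
Difference of HT1080 clone 21 from the other HT1080 clones (log2 difference, y axis) for the 38 members in the run, the 21 outside it, 118 complex partners and 32 E2F targets. Points are genes and bars medians, which stand at -0.69, -0.06, 0.04 and 0.19.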

How the data were processed

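Total RNA was labelled with biotin and hybridised to Illumina arrays, per the labels. The deposited values are on a log scale, taken as log2 although no source states the base, and the authors had centred each probe on its median over the arrays of a line. How the arrays were background-corrected and normalized is not given in the sources used here. Signal over background is unknown for centred values, and the number of arrays limits the precision.

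Each array was centred on its median over all probes. Of 47323 probes, 30113 had 1 gene symbol, 8 several and 17202 none. Symbols and gene order came from RefSeq (GRCh38.p14), and a gene was read from its most variable probe over the HT1080 and HCT116 arrays. The 2 arrays of a clone were averaged. The labels do not say whether these came from separate cultures, so p-values measure only the spread between these clones. Genotypes were compared with limma 3.58.1 in R 4.3.3 (two-sided, Benjamini-Hochberg over 20046 genes, adjusted p 0.05), which was tested on simulated data of the same design: of 100 genes changed by 1 (log2) 41 were recovered in HT1080 and 86 in HCT116, and of 100 changed by 2, 82 and 94.

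Named genes were the 3 markers in every array, the members at the run's ends, the 8 lowest and 5 highest members in clone 21, members past a test, and the 3 lowest and highest of each list; other members are examples of role groups or zones, chosen after their values were seen. Members and lists were chosen with earlier results of these data known. Alternatives covered centring, probe choice, repeatable genes, single arrays, single clones, margins and the replicate block. Array numbers did not pair clones: array 1 minus array 2 correlated between clones by -0.06 to 0.15 in HT1080 (6 pairs) and -0.18 to 0.19 in HCT116 (15 pairs).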

Additional observations from a re-analysis of the deposited data

How the results depend on the processing

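Between genotypes, 0 members passed limma's adjusted threshold in HT1080 (10 alternatives), HCT116 (12) and the interaction (16), including the fit of arrays with a replicate block, in which 0 members but 55, 150 and 135 genes in all passed in the 3 comparisons, against 2, 0 and 10 otherwise. The members lower in HT1080 clone 21 numbered 32 to 48 over 9 alternatives, against 41. The 32 is out of 44 members, those among the repeatable genes, which also gave the 27 and the 19 for the runs below. The 48 is with first arrays alone. The members' median of -0.58 became -0.43 with the mean of all probes, -0.50 with probes chosen on HCT116 arrays and -0.53 with second arrays alone. The HT1080 run held 27 to 49 members in 11 alternatives, against 38, and 15 with a margin of 0.3. The knockout minus wild type median of the members ranged from -0.55 to 0.016 in HT1080 when clones were left out, and from -0.17 to -0.066 in HCT116. For HCT116 clone 21, whose alternatives were chosen after seeing the data, 18 to 30 members were lower, against 21. The median of -0.11 became -0.32 with repeatable genes and -0.20 with second arrays alone. Repeatable genes were picked by array correlation over the HCT116 clones, clone 21 included. A gene low on both arrays of that clone therefore passes more easily. Among the 44 members kept, 21 were lower, as among all 59, so the -0.32 is in part built in. Its run held 19 to 23 members in 11 alternatives, against 20, but 6 without array centring, 6 with the mean of all probes and 4 with a margin of 0.3. Beyond that, the cause of these shifts was not tested. The log base is unknown, and DNA was not measured.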

Other observations

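Other genes of the shorter run near the centromere, which the list of members covers with SAP18 alone, were also low in HT1080 clone 21. GJB2, the gap junction protein connexin 26, stood at -1.31 and -1.35 in clone 21 and at 0.64 and 0.45 in clone 8, against -0.57 and -0.49 in clone 2 and 2.80 and 3.05 in clone 9, so its difference of -2.31 includes a high clone 9. By the same difference, IFT88, an intraflagellar transport protein, stood at -0.76, XPO4, a nuclear exporter, at -0.70 and LATS2, a Hippo pathway kinase, at -0.51. Inside the main run, NDFIP2, an adaptor of NEDD4 ubiquitin ligases and a near neighbour of SPRY2, stood at -1.73 in HT1080 clone 21 and -0.92 in HCT116 clone 21. CARS2, a mitochondrial aminoacyl-tRNA synthetase near the end of the arm, and ANKRD10, an ankyrin repeat protein close to it, were lower in HT1080 clone 21 at -0.84 and -0.60, with ING1 between them at 0.17. These genes were chosen after their values were seen.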
